A study of Caenorhabditis elegans with 2 samples.

Results

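The promoter peaks described here are the binding regions of PAG-3, in an IDR-thresholded set from larvae of Caenorhabditis elegans, whose summits lay near the start of a protein-coding gene. IDR, the irreproducible discovery rate, uses how alike regions rank in replicates to set a threshold. A summit counted as a promoter peak from 1000 bp upstream to 200 bp downstream of the outer start of a gene model, read on the strand of the gene. By this rule 408 of the 910 thresholded peaks were promoter peaks (44.8%, Wilson 95% interval 41.6 to 48.1). They lay in the windows of 511 of 19973 protein-coding genes, or 2.56% of them, and made 514 pairs of a peak and a gene. The other 502 thresholded peaks, and 7775 promoter regions further down the deposited list of 30000 regions from both replicates together, were used for comparison. Those 7775 fell below the threshold and are called lower regions.

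In ChIP-seq, chromatin bound by a protein is precipitated and its DNA sequenced. Here PAG-3 carried a C-terminal tag of GFP and FLAG, and an antibody against GFP was used. The larvae were whole hermaphrodites of the first larval stage (L1), starved after bleaching to synchronize them and collected 6 hours post synchronization. Their strain, OP154, carries unc-119(ed3) III and the integrated transgene wgIs154, so both were shared by every sample. The 2 biological replicates formed 1 group, and no control sample was analysed here. Whole animals were used, so no peak can be assigned to a cell type. The lists give no read counts, so the depth behind each peak is unknown, and a signal is the height that the authors' caller gave, on a scale not stated. No test was made, because the peaks of 1 group are not replicates of a condition. Intervals cover the counting of peaks or genes only, and neighbouring genes can share a peak.

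PAG-3, a member of the Gfi family of zinc finger proteins, is known in C. elegans for its part in the fate of touch neurons and of motor neurons in the ventral cord. Proteins of this family in mammals bind DNA and are best known as repressors of transcription. Promoters in C. elegans are usually short and lie just upstream of the gene. Many transcripts are trans-spliced, so the annotated start can lie downstream of the place where transcription begins. Some genes are transcribed together from one promoter as an operon, in which the downstream genes follow the preceding gene closely on the same strand. Neighbouring genes on opposite strands can instead share one stretch of upstream DNA, here called a divergent promoter.

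The sequences around the summits are shown for 10 promoter peaks, each 101 bp centred on the summit, so that the letters behind the counts below can be read. They comprise 8 of the 16 highest promoter peaks, chosen because the stretch lay outside annotated exons, and the peaks of C36E6.2 and mup-4, chosen after their values were seen. Each runs 5′ to 3′ on the strand of the nearest gene, on ce11 (WBcel235), read from the RefSeq genome. Capitals mark every match, on either strand, to 4 words. The word GAGAGA reads TCTCTC on the opposite strand, the word ATGGCA reads there as TGCCAT, the word GACGCA as the run TGCGTC, and the palindrome CACGTG as itself.
F40A3.6 (chrV:7894083-7894183, minus strand): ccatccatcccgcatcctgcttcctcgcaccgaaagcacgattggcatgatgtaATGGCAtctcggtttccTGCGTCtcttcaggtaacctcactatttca
T25F10.1 (chrV:6767742-6767842, plus strand): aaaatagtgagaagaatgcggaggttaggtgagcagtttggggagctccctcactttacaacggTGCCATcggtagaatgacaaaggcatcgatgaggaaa
unc-112 (chrV:14697107-14697207, minus strand): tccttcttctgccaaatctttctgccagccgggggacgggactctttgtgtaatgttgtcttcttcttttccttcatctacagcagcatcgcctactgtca
M03F4.4 (chrX:4957451-4957551, minus strand): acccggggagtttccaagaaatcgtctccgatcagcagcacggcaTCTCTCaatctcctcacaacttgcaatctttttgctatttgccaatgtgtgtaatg
B0310.1 (chrX:493058-493158, plus strand): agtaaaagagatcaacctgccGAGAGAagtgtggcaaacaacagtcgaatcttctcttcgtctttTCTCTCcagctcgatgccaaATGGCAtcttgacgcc
cdc-14 (chrII:5593710-5593810, minus strand): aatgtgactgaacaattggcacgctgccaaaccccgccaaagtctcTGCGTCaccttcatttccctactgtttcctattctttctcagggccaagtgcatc
rpl-11.2 (chrX:2242960-2243060, minus strand): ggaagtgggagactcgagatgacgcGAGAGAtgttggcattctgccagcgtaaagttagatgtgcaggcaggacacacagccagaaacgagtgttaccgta
slrp-1 (chrV:13565413-13565513, plus strand): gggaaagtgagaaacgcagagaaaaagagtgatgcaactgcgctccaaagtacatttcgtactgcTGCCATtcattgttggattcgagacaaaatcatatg
C36E6.2 (chrX:17451565-17451665, plus strand): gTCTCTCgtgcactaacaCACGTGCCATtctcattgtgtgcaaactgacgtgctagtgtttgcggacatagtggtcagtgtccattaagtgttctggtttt
mup-4 (chrIII:7489285-7489385, minus strand): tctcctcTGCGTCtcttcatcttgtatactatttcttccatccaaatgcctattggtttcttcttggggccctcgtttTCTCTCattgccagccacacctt

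ATGGCA or its reverse was present beside F40A3.6, T25F10.1, B0310.1, slrp-1 and C36E6.2. At C36E6.2 a CACGTG and a reverse ATGGCA overlapped in the run CACGTGCCAT. The stretch at unc-112 held none of the 4 words. B0310.1 held GAGAGA in both orientations, and M03F4.4, rpl-11.2, C36E6.2 and mup-4 held it or its reverse. The reverse of GACGCA was at F40A3.6, cdc-14 and mup-4. A match describes these letters and is not a binding site by itself.

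The highest promoter peak lay 271 bp upstream of F40A3.6, which encodes an uncharacterized protein, and inside an intron of another gene. Its signal was 619 in the thresholded set, 457 in replicate 1 and 164.5 in replicate 2, and it ranked 3 among all thresholded peaks. The peak of tln-1, which encodes talin, a linker of integrins to actin, followed with 560, 450 in replicate 1 and 118 in replicate 2, at 789 bp upstream. Both were near the top of each replicate's own list, at ranks 3 and 4 in replicate 1 and 4 and 8 in replicate 2.

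T25F10.1, an uncharacterized gene, had a signal of 468 with its summit 710 bp upstream, 333 in replicate 1 and 128 in replicate 2. The summit lies in an intron of clik-1, which encodes a calponin-like protein and lies on the opposite strand. The promoter of clik-1 itself held a peak of 249.5, 2 bp upstream of its start, 942 bp away. Both summits were among the 20 highest. The genes overlap, since the start of T25F10.1 lies inside clik-1. The summit at the clik-1 start was nearer to the start of T25F10.1 than the one 710 bp upstream. It fell beyond the 200 bp downstream limit, so the window decided which summit each gene was given.

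Muscle genes made up 7 of the 20 highest promoter peaks. unc-112, whose protein kindlin acts in muscle attachment, had 377, 286 in replicate 1 and 95.3 in replicate 2, at 503 bp upstream. unc-54, which encodes the major myosin heavy chain of the body wall, had 298, 225 in replicate 1 and 79.7 in replicate 2. unc-15, which encodes paramyosin, had 277, 204 in replicate 1 and 69.3 in replicate 2, at 172 bp upstream. tnt-2, a troponin T gene, had 239 (183 in replicate 1 and 56.5 in replicate 2) at 406 bp upstream, and mlc-2, a myosin light chain gene, had 208 (139 and 65.5 in the same order) at 333 bp upstream. With tln-1 and clik-1, the peaks of this group covered distances from 2 to 789 bp upstream.

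The others of the 20 belonged to genes of varied kinds. lgc-34, which encodes a ligand-gated ion channel, had 376 (283 in replicate 1, 94.7 in replicate 2) with a summit 5 bp upstream. M03F4.4 and B0310.1, both uncharacterized, had 353 at 83 bp and 316 at 120 bp upstream. rpl-11.2, a ribosomal protein gene, had 277 at 392 bp upstream, R13H4.2 256 at 49 bp, ZK1321.4 246.5 at 414 bp, and slrp-1 240 at 400 bp. C36E6.2 had 238 at 55 bp upstream and F48F7.5, which encodes a C2H2 zinc finger protein, had 216 at 127 bp. F47D12.9, which encodes a WD repeat protein, had 292 with its summit 83 bp downstream of the start, in the 5′ untranslated region. In the list of replicate 1 the 20 ranked at or above 45, and in that of replicate 2 at or above 79.

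**Figure D1:**
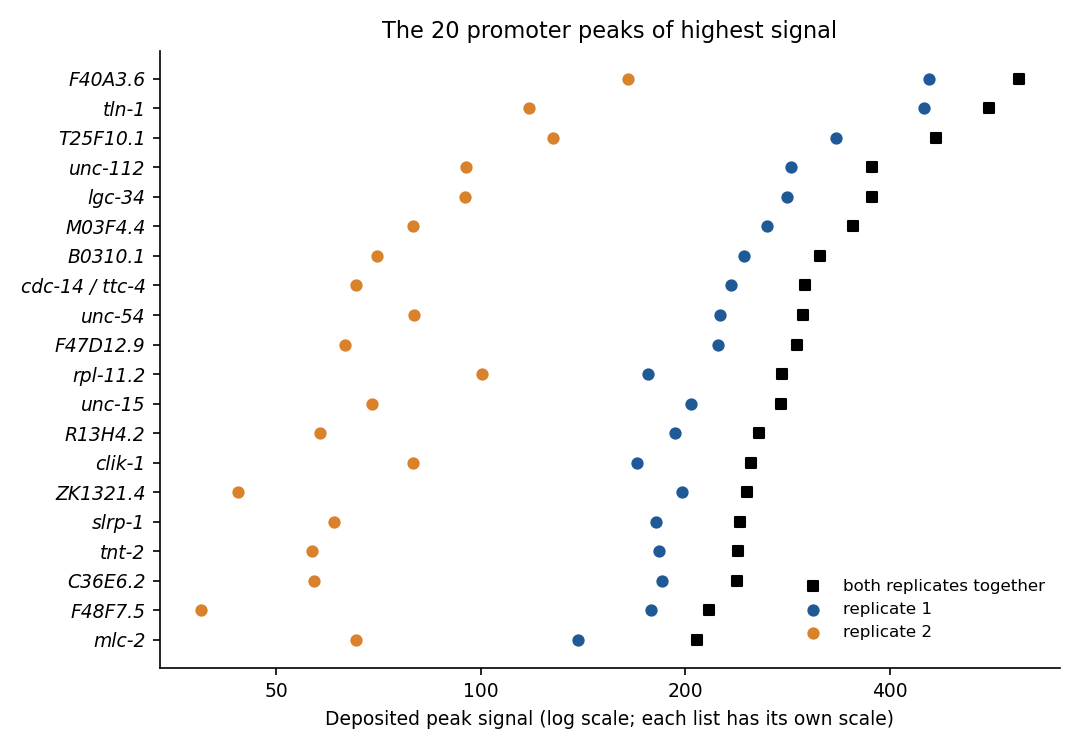
Deposited signal (horizontal log axis, scale not stated) of the 20 highest promoter peaks in the thresholded set and in the list of each replicate, 1 row per nearest gene. Levels are read within a list only, since each has its own scale. F40A3.6 is at the top with 619 and leads the 20 within each replicate too.

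Across all promoter peaks the median signal was 57.3 (quartiles 48.3 to 77.7, range 43.4 to 619), against 58.6 (49.2 to 80.0) for the other thresholded peaks. In replicate 1 alone the medians were 42.1 for promoter peaks and 44.0 for the others, and in replicate 2 they were 19.4 and 18.9. The quartiles of both sets overlapped almost wholly, and with the highest regions of either replicate alone the promoter median was the higher. Promoter peaks numbered 8 of the 20, 21 of the 50, 42 of the 100 and 86 of the 200 highest thresholded peaks. The lowest promoter peak, the second summit of W03F8.4, had 43.4 and sptf-3 had 43.5, while the highest promoter region below the threshold, at dct-1, also had 43.4.

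Promoter peaks were found again near the same place in most cases. A region of replicate 1 had its summit within 100 bp for 396 of 408 (97.1%), and a region of replicate 2 for 352 (86.3%), against 97.01% and 83.9% of the other thresholded peaks. These matches drew on all 30000 regions of each replicate. The thresholded set was made from these same replicates, so the matches are not independent support. Its regions were the 910 highest of the list of both replicates together. Membership thus followed that signal, and not the agreement of each peak between replicates. Among the 910 highest regions of each replicate, the share was 75.5% in replicate 1 and 56.1% in replicate 2. The other thresholded peaks had 80.1% and 49.8% in the same order. In the full lists of both replicates 343 were matched, with a median summit shift of 23 bp between replicates. Those matched in both had a median signal of 59.9, those in replicate 1 only 55.8 (53 peaks), and those in replicate 2 only 47.4 (9 peaks). No match in either was found for 3 peaks, at zig-12 (47.9), between the divergent starts of T24H10.1 and clh-5 (47.7), and at W03F8.4 (43.4).

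Summits were most frequent shortly upstream of the start. The median distance was 208.5 bp upstream, with quartiles from 391.25 to 85.25 bp upstream, and the lower regions had a median of 302 bp (624 to 71). From 0 to 400 bp upstream lay 280 of 408 promoter peaks (68.6%, 63.97 to 72.9), against 3226 of 7775 lower regions (41.5%, 40.4 to 42.6). More than 500 bp upstream lay 18.6% of the promoter peaks and 33.7% of the lower regions. The downstream 200 bp held 7.35% (30 peaks) of the promoter peaks and 17.003% of the lower regions. The fullest interval of 100 bp was from 200 to 100 bp upstream, with 88 peaks (21.6%), against 11.4% of the lower regions. Within 50 bp of the start lay 51 peaks (12.5%). Measured from the nearest annotated transcript start instead, the median was 207 bp upstream, and 10 peaks were nearer to an inner start.

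**Figure D2:**
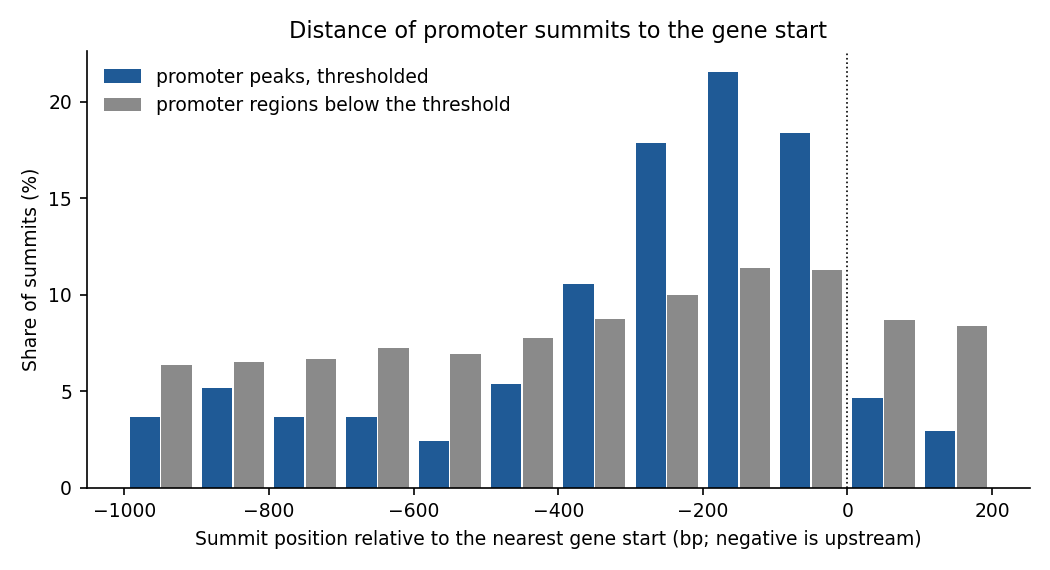
Share of regions (percent, vertical axis) in intervals of 100 bp of distance from the summit to the nearest start (horizontal axis, upstream is negative), for 408 promoter peaks and 7775 lower regions. The peaks are fullest from 200 to 100 bp upstream (21.6%), where the lower regions reach 11.4%.

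Signal showed no steady trend with distance. In the 3 intervals from 300 bp upstream to the start the median signal was 55.8, 56.1 and 61.6, and from 800 to 700 bp upstream it was 73.3 over 15 peaks. Position was similar in the replicates, with a median of 205 bp upstream when the summit of replicate 1 or of replicate 2 was used, and median shifts of 7 bp and 15 bp from the thresholded summit.

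The edges of the window mark where the count stops. The farthest upstream summit inside was at T03G6.3 (995 bp, signal 57.2), and the next at chd-7 (980 bp, 46.4). The nearest outside were those of ccb-1 (1004 bp, 44.2) and C12D12.3 (1023 bp, 97.5). On the downstream side nhr-104 (197 bp, 57.3) and pyk-1 (189 bp, 49.1) were inside, and cah-4 (215 bp, 49.1) and T01D3.3 (230 bp, 43.7) were outside. Most promoter summits, 315 of 408 (77.2%), fell in intergenic sequence. Of the others, 33 were in non-coding genes, 23 in introns, 22 in 5′ untranslated regions, 10 in coding exons and 5 in 3′ untranslated regions.

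Promoter position faded down the ranked list of both replicates together. Of its first 910 regions, the thresholded set, 44.8% were at promoters, and of ranks 911 to 2000 44.8% again. The share was 35.3% at ranks 2001 to 5000, 27.9% at 5001 to 10000, 24.8% at 10001 to 20000 and 23.5% at 20001 to 30000. Within promoters, the share from 0 to 400 bp upstream was 68.6% in the first interval, 62.7% in the next, then 49.7%, 42.8%, 37.5% and 36.8%. Divergent windows held 22.3% of the promoter peaks and 25.8% of the promoter regions at ranks 911 to 2000, but 9.35% at ranks 20001 to 30000. The regions just below the threshold were thus close to the peaks in these shares.

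**Figure D3:**
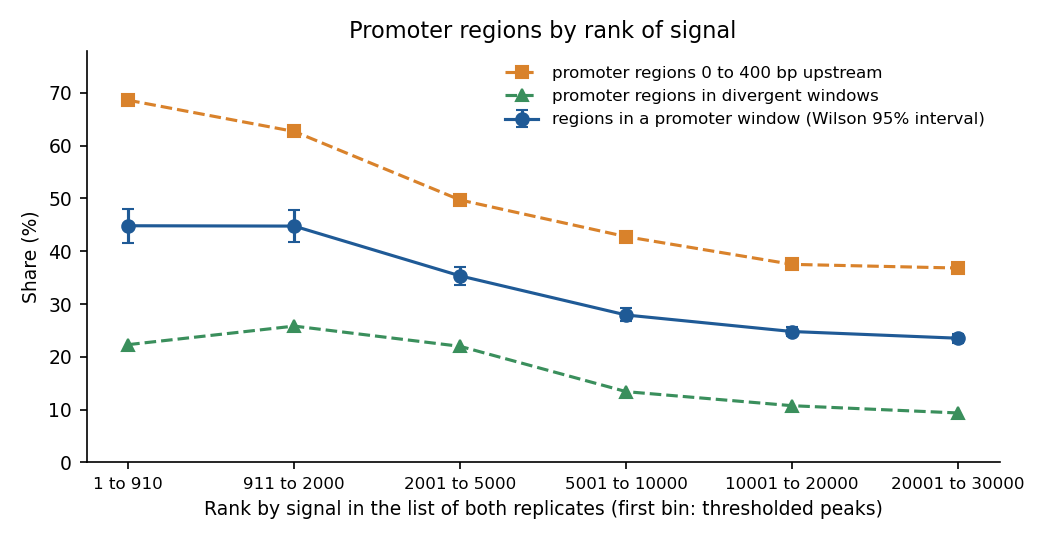
Share of regions at promoters, and among these the share 0 to 400 bp upstream and in divergent windows (percent, vertical axis), by rank in the list of both replicates together (horizontal axis, 6 intervals). The first interval is the thresholded set, with 44.8% at promoters, against 23.5% in the last.

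A summit in the window of 1 gene only was the usual case. Such single promoters numbered 310 of 408 (76.0%, 71.6 to 79.9), against 85.1% of the lower regions. Divergent promoters numbered 91 (22.3%, 18.5 to 26.6), against 13.3% (12.5 to 14.05). Genes on the same strand shared 7 peaks (1.72%), against 1.49% of lower regions. Median signal was 59.5 at single, 54.9 at divergent and 54.5 at same-strand promoters. Counted by genes, 308 of the 511 had a single promoter peak and 189 a divergent one.

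Divergent summits usually lay between the starts. The starts of the 91 pairs were a median of 556 bp apart (quartiles 339 to 783, widest 1771), and 82 summits (90.1%) fell between them. The nearer start was a median of 139 bp from the summit and the farther 415 bp. Of all 19973 genes, 17.7% had a head-to-head neighbour starting within 1000 bp. Among genes with a promoter peak the share was 33.1% (169 genes). Put the other way, 4.78% of genes with such a neighbour had a promoter peak and 2.08% of the others. A single summit can mark both genes of a pair, so these shares do not count separate peaks.

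The highest divergent peak lay between cdc-14, which encodes a phosphatase of cell division, and ttc-4, 333 bp and 954 bp upstream of their starts. Its signal was 299.6, 234 in replicate 1 and 65.6 in replicate 2, and the starts are 1287 bp apart. The peak between B0379.7 and B0379.1 had 132 and that between grl-11 and ced-11 had 130. Ribosomal protein genes took part in the next 2 pairs, rpl-15 with K11H12.8 (119.7) and rps-20 with ekl-4 (118.6). The peak of C30F12.4 and idhg-2, which encodes a mitochondrial isocitrate dehydrogenase subunit, had 118.0. None of these 6 summits had its nearer start farther than 442 bp away.

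**Figure D4:**
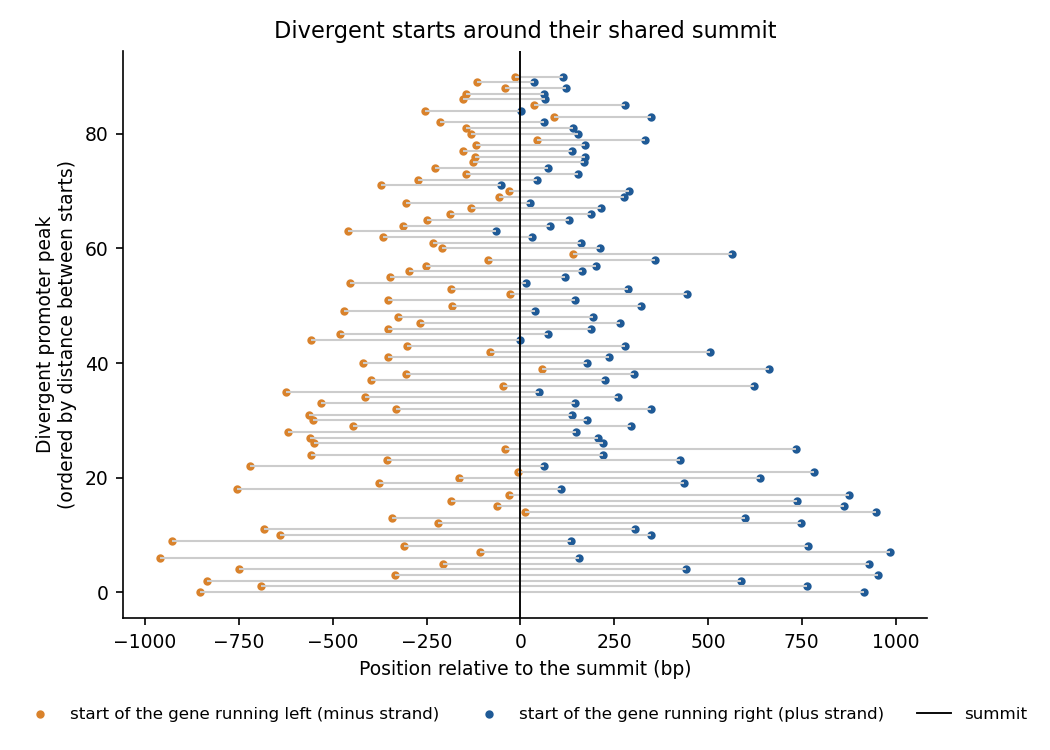
Starts of both genes at the 91 divergent promoter peaks, 1 row per peak ordered by the distance between the starts (vertical axis), at their position relative to the summit (horizontal axis, bp; the vertical line is the summit). Dots mark the starts of the minus-strand and plus-strand gene, and in 82 rows the summit lies between them.

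Some peaks served 3 windows. The highest of the 8 lay 107 bp upstream of W03C9.5 and in the windows of rab-7, a small GTPase gene of late endosomes, and mex-1, a maternal RNA-binding protein gene (73.8). Another covered rab-18, kbp-4 and par-2 (72.2), where par-2 encodes a protein of embryonic polarity. The peak of erh-1, lpd-9 and mics-1 had 60.6, that of K10D2.5, prp-19 and emb-1 47.4, that of F10E9.5, F10E9.7 and F10E9.4 46.98, and that of elof-1, lin-7 and Y54G11A.17 46.7. Only 3 genes had 2 promoter summits. pfd-1, which encodes a prefoldin subunit, had 78.1 at 976 bp and 75.3 at 304 bp upstream. epn-1, an epsin gene, had 73.2 at 657 bp and 45.9 at 861 bp, and W03F8.4 had 80.2 at 270 bp and 43.4 at 70 bp.

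Some genes had summits both at the promoter and inside. Of the 511 genes, 16 (3.13%) held another thresholded summit, not itself a promoter peak, within the gene model. The promoter summit of T25F10.1 inside clik-1 is thus not counted here. The share of all genes with such an inner summit was not computed, so the 3.13% has no background beside it. At mup-4 the promoter peak had 137 and the inner peak 540, at unc-54 298 and 391, and at lin-14 53.8 and 213. At unc-89, which encodes obscurin, the promoter peak had 50.7 and the highest of 3 inner peaks 532. At unc-112 the promoter peak had 377 and the inner peak 74.7, and at unc-15 the values were 277 and 122. The promoter peak was the higher in 8 of the 16 genes and an inner peak in the other 8. Another thresholded summit lay within 2000 bp of 27 promoter peaks (6.62%), against 80 of the other thresholded peaks (15.9%).

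Operon position was read from spacing, because no annotation of operons was used here. A gene whose start followed the end of a same-strand gene by up to 500 bp was called downstream, a gene that began such a run was called first, and the others were called alone. By this reading 122 of the 511 genes were first (23.9%, 20.4 to 27.8), against 13.3% of all genes. Downstream genes numbered 43 (8.41%, 6.31 to 11.1), against 18.1% of all genes. Alone genes numbered 346 (67.7%), against 68.6%. A promoter peak was thus present at 4.60% of first genes, 1.19% of downstream genes and 2.52% of alone genes. First genes had the nearest start in 78 of their pairs with a peak (63.4%, 54.6 to 71.4). Taken by nearest gene, 19.1% of promoter peaks were at first genes, against 15.2% of lower regions, and 8.58% at downstream genes, against 18.1%. Genes with a lower region were closer to all genes, with 16.02% first, 17.2% downstream and 66.8% alone.

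The downstream genes with the highest peaks held their summits in the short gap before the start. nhr-87, a nuclear hormone receptor gene, had 114 at 56 bp upstream, in a gap of 275 bp after nhr-92. Y71F9B.9, which encodes a hydroxyacyl-CoA dehydrogenase, had 83.6 at 11 bp, and W03F8.4 had 80.2 at 270 bp, in the gap after lam-1. eelo-2 had 77.6, F17C11.4 74.4 and ddp-1, which encodes a mitochondrial import protein, 73.6. All of these 6 summits lay between the gene models. Over the 44 pairs of a peak and a downstream gene, 27 summits did so (61.4%, 46.6 to 74.3), and the downstream gene had the nearest start in 35. Taken by nearest gene, the median signal was 54.1 over 35 downstream peaks, 55.1 over 78 first and 60.5 over 295 alone peaks. The median distance upstream was 129 bp, 210.5 bp and 220 bp in the same order.

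Genes were sorted by symbol into 38 lists, each named for a role, and not every member's role was checked. The count of each list is read against 2.56% of all genes with a promoter peak. At least 1 list of known function held 120 of the 511 genes (23.5%, 20.01 to 27.3), against 19.99% of all genes. Genes named by sequence only numbered 158 of 9056 (1.74%, 1.49 to 2.04), with a median signal of 56.5.

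Muscle genes had the highest share. Of 69 genes 21 had a promoter peak (30.4%, 20.8 to 42.1), with a median signal of 109 and a range from 50.7 to 560. All 21 were matched in both replicates, 19 had a single promoter, and 19 were called alone by spacing. These 19 include unc-98, which shared its peak with F08C6.18 on the same strand. The median distance was 262 bp upstream. Beyond those named above they include unc-97, a LIM protein gene of muscle attachment (144 at 379 bp), unc-27, a troponin I gene (139 at 277 bp), lev-11, the tropomyosin gene (109 at 58 bp), and pat-10, a troponin C gene (75.4, 141 bp downstream). The lowest were act-1, an actin gene, with 52.1 and unc-89 with 50.7. Any pooled region in the window, thresholded or not, was present at 65.2% of the muscle genes and 40.6% of all genes. That share was not particular to muscle. It was 78.1% for the respiratory chain and ATP synthase, 77.8% for the cytosolic ribosome and 73.2% for translation factors. Pan-neuronal and synaptic genes had 62.9%.

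Genes of the cytosolic ribosome came next among the larger lists, with 16 of 81 (19.8%, 12.5 to 29.7) and a median signal of 60.7. After rpl-11.2 (277), the highest were rpl-15 (119.7), rps-20 (118.6) and rps-12 (113). Here 10 of the 16 had divergent promoters and 7 were first genes, while none was downstream, and in 10 the ribosomal gene had the nearest start. Counting nearest starts only, the share was 12.3%, and among the peaks of higher signal 11.1%. Both settings mark fewer genes in all, and the matching share of all genes was not computed. The 2.56% is therefore not their reference. The arrangement thus differed in count from that of muscle genes, of which 1 of 21 was divergent. Of 66 mitochondrial ribosomal genes only mrpl-15 had a promoter peak (59.0).

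Other housekeeping lists had smaller counts. Genes of the respiratory chain and ATP synthase numbered 8 of 64 (12.5%), led by cox-5A, a cytochrome oxidase subunit gene (87.5), ucr-2.2 (62.9), sdha-1 (62.02) and lpd-9 (60.6). That share was 7.81% by nearest starts only and 6.25% among the peaks of higher signal. Here too the matching share of all genes was not computed. Vacuolar ATPase subunits numbered 3 of 21, vha-12 (81.7), vha-8 (70.2) and vha-14 (49.4). Glycolysis genes numbered 3 of 23, aldo-1, an aldolase gene (61.3), pyk-1 (49.1) and hxk-3 (46.7). Heat shock and chaperone genes numbered 7 of 63, led by hsp-110 (83.2), bag-1 (70.6), cct-1 (61.3) and dnj-9 (51.03), and 5 had divergent promoters. Translation factors numbered 4 of 41, eef-1A.1 (85.5), ifg-1 (74.9), iff-2 (73.1) and eif-3.J (66.1). The proteasome had 3 of 33, rpn-3 (83.2), rpn-6.1 (67.9) and rpt-2 (57.1). The listed gene had the nearest start for 3 of the 7 heat shock and chaperone genes and 2 of the 4 translation factors. For the proteasome and the vacuolar ATPase it was 2 of 3 each. Lists can also share a peak, as hsp-110 did with rpn-3. The list of RNA splicing and binding had 5 of 61, led by rsp-7 (101.5), sym-4 (72.1), prp-8 (67.1) and snr-4 (52.6). A role of sym-4 in splicing or RNA binding was not checked.

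Regulatory genes were marked in small numbers. Heterochronic genes, which time larval stages, numbered 4 of 19, nhl-2 (88.2), lin-28 (79.0), lin-14 (53.8) and nhr-25 (48.1), and the interval ran from 8.51% to 43.3%. nhr-25 was also the 1 epidermis regulator of 14. The list of C2H2 zinc finger genes of named families had 5 of 50, led by lin-15B (148), ztf-17 (114), ztf-7 (61.7) and klf-3 (61.1), all with single promoters. Here lin-15B was placed by its symbol, and its kind of zinc finger was not checked. Nuclear hormone receptors numbered 7 of 274 (2.55%), beside 2.56% of all genes, led by nhr-87 (114), nhr-104 (57.3), nhr-142 (53.2) and nhr-32 (49.1). Among 42 basic helix-loop-helix genes only hlh-11 had one (62.9), and among 96 homeobox genes none did, which allows up to 3.125%. Cell cycle genes numbered 4 of 40, cdc-14 (299.6), cdk-12 (73.4), cdc-6 (48.7) and wee-1.3 (43.6).

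Signalling and cytoskeletal lists had 1 to 3 genes each. Wnt and Notch signalling had wrm-1, a beta-catenin gene (73.3), and mig-5 (61.3) of 50, and dauer and insulin signalling had akt-2 (76.0) of 28. The list of small GTPases had rab-7 (73.8), rab-18 (72.2) and ran-4 (60.8) of 43, although ran-4 encodes a nuclear transport factor. Tubulins and motors had klp-19 (48.4) and tba-2 (48.4) of 42. Epidermal attachment had mup-4 (137), which is in the muscle list too, and spc-1, a spectrin gene (65.4), of 21. Cuticle collagens, the main proteins of the larval coat, numbered 10 of 176 (5.68%, 3.12 to 10.1), led by col-159 and col-160, which shared a same-strand peak of 202, col-42 (120.5) and col-93 (108).

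The lists of neuronal genes were too small to be set apart from the 2.56% of all genes. The list of touch and ventral cord neurons had 0 of 30, which allows a share of up to 10%, and pan-neuronal and synaptic genes had 0 of 35 (up to 8.57%). Neuropeptide and insulin genes had 0 of 140 (up to 2.14%, with a Wilson upper bound of 2.67%). Among the lower regions, those at unc-37, which encodes a Groucho co-repressor (37.1, rank 1356), and lin-39, a Hox gene (32.8, rank 1845), were the highest of the 8 touch and ventral cord genes with a lower region. Of 41 neurotransmitter genes 2 had promoter peaks (4.88%, 1.35 to 16.1), lgc-34 (376) and ric-3, a gene of receptor assembly (46.2).

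Other tissue lists were likewise too small to be told from the 2.56% of all genes. Pharynx genes had 0 of 22, which allows up to 13.6%, and intestine genes 0 of 39 (up to 7.69%). Germline genes had 1 of 44, mex-1 (73.8), or 2.27% (0.402 to 11.8). That summit lay 986 bp upstream of mex-1 and was nearer to W03C9.5. Among large gene families the shares of chemoreceptors, F-box and BTB-MATH genes and C-type lectins were below 2.56%, with Wilson upper bounds of 0.432%, 2.47% and 1.58%. Chemoreceptor genes had 1 of 1308 (0.0765%), srh-2 (54.7), which shared its summit with a divergent gene. With the regions of either replicate alone the share was 0.153%. F-box and BTB-MATH genes had 4 of 412 (0.971%), bath-42 (67.1), bath-36 (47.2), fbxb-88 (46.1) and fbxb-85 (45.2). Only 2 of these 4 had the nearest start. C-type lectins had 0 of 240 (up to 1.25%), cytochrome P450 genes 0 of 74 (up to 4.05%) and major sperm proteins 0 of 31 (up to 9.68%). Histones had 1 of 82, his-37 (47.1), and UDP-glucuronosyl and glutathione transferases 1 as well, gst-20 (102), or 0.862%.

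**Figure D5:**
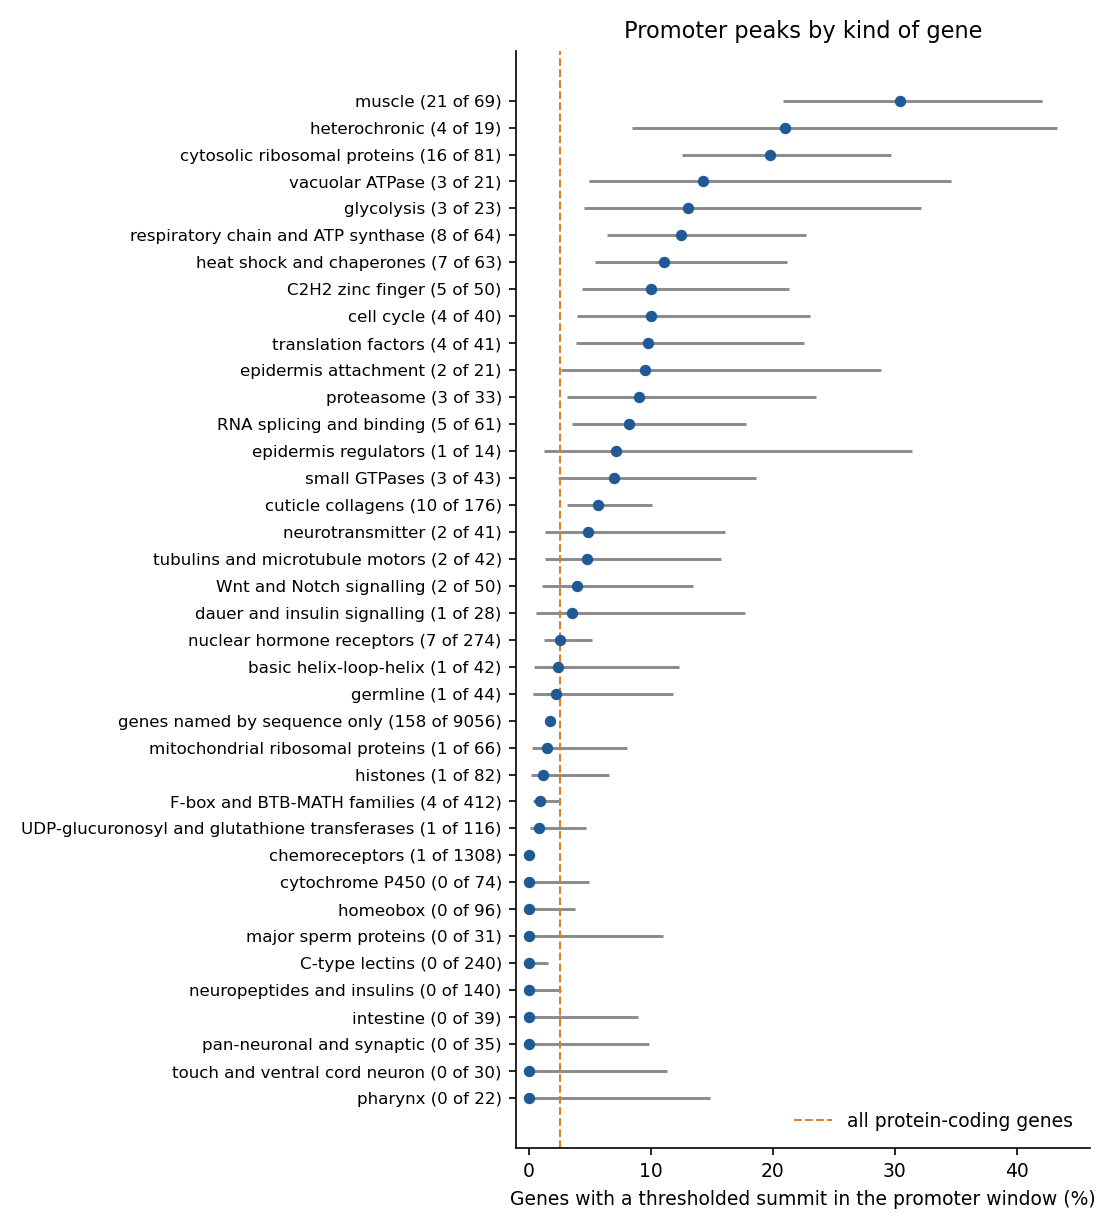
Share of each gene list with a promoter peak (percent, horizontal axis), with Wilson 95% intervals, beside the 2.56% of all protein-coding genes (vertical line). Muscle is at 30.4% and the cytosolic ribosome at 19.8%, while chemoreceptors are at 0.0765%.

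The 4 words marked in the sequences above were more frequent at promoter peaks than beside them. The words were taken from an earlier look at these data, so their higher shares are not independent evidence. For GAGAGA, 100 of 408 summits had a match within 50 bp (24.5%, 20.6 to 28.9), against 8.09% of lower regions, 6.13% of stretches of the same length 300 bp to each side, and 7.47% of all promoters. ATGGCA lay at 60 summits (14.7%, 11.6 to 18.5), against 3.54% of lower regions, 3.19% of the flanks and 3.07% of all promoters. GACGCA lay at 61 (14.95%, 11.8 to 18.7), against 3.29%, 2.33% and 3.15%. CACGTG lay at 21 (5.15%, 3.39 to 7.74), against 2.25%, 1.72% and 1.53%, and in the regions of replicate 2 alone its share was 2.71%. At least 1 of these 4 lay at 189 summits (46.3%). The promoters of all genes were searched in the 101 bp centred 200 bp upstream of the start. AATCAC, the core of the site known for mammalian Gfi1, lay at 5.39% of promoter summits, against 5.77% of lower regions and 6.01% of all promoters.

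Promoter summits and the other thresholded summits were not alike in every word. GAGAGA was at 24.5% of promoter peaks and 32.3% (28.3 to 36.5) of the others, and GACGCA at 14.95% and 9.56% (7.29 to 12.4). ATGGCA was at 14.7% and 15.5%. Among promoter peaks ATGGCA followed the signal: it lay at 20 of the highest 50 (40%) and at 13 of the 204 lowest (6.37%), and the median signal was 78.2 with it and 55.4 without. GAGAGA did so too, at 38% of the highest 50 and 18.6% of the 204 lowest. The median signal was 66.5 with GAGAGA and 56.3 without. GACGCA lay at 20% of the highest 50 and 15.7% of the 204 lowest, at 17.5% of summits 0 to 400 bp upstream and 8.16% of those farther, and at 20.9% of divergent and 13.2% of single promoters. Of the 60 summits with ATGGCA, 22 had it on the strand of the gene and 38 on the other. The median GC content was 44.6% at promoter summits, against 43.6% at the other thresholded summits and 33.7% at lower regions, at the flanks and at all promoters. It was higher at both thresholded sets than at the other 3. The part of GC in the shares was not tested.

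Promoter peaks were spread over the 6 chromosomes. Chromosome X had the most, 89 of its 221 thresholded peaks (40.3%), and chromosome II the highest share, 63 of 110 (57.3%). Chromosome IV had the lowest share, 44 of 124 (35.5%). As a share of genes, 3.56% on chromosome III and 3.44% on X had a promoter peak, against 1.74% on chromosome IV and 1.86% on V.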

How the data were processed

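The authors deposited ranked lists of 30000 regions for each replicate and for both together, and an IDR-thresholded set, all made per the file headers on ce11 with 1 control file. Aligner, peak caller and signal scale: not given in the sources used here. Regions were ranked and described by the deposited signal within 1 list at a time, and the deposited summit offset gave the position. Gene models came from Ensembl release 115 (WBcel235) and sequence from RefSeq. Replicates were matched by summits within 100 bp. Shares carry Wilson 95% intervals (scipy 1.17.1), and 3 counts set the limit for a share of 0. No test was made. Distance and operon-gap code was checked on simulated data.

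The promoter peaks, gene lists and words were chosen with earlier results of these data known. Genes named are those of the 20 highest promoter peaks, up to 4 per list, the window edges, and the highest shared, repeated and operon-like cases (up to 6 each). Genes with inner peaks, those matched in neither replicate and the lower regions of touch neuron genes were picked with their values in view; cdc genes were then removed from the small GTPase list. Alternatives were each replicate alone, the peaks of higher signal, windows of 500 and 2000 bp, every transcript start, gaps of 200 and 1000 bp, the nearest start only (for operon position chosen after the data were seen) and words within 100 bp.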

Additional observations from a re-analysis of the deposited data

How the results depend on the processing

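Of 87 recomputed values, 30 moved by no more than 1 SD between the replicates and 57 by more. That SD rests on 2 values, each replicate alone, which are themselves among the recomputed values. It was 0 for ribosomal genes and chemoreceptors, where any change counted as more. With windows 500 bp and 2000 bp upstream the promoter share was 36.5% and 56.6%, the median distance -163.5 and -276 bp, single windows 82.2% and 66.4%, and divergent windows 16.6% and 29.7%. Every transcript start gave a promoter share of 51.6%, single windows 78.1% and divergent windows 20.4%. The peaks of higher signal gave -230 bp, single 78.6% and divergent 19.9%, and ATGGCA 23.4%. Operon-like downstream genes were 7.32% there, 11.3% with the 2000 bp window, 4.50% with gaps up to 200 bp (9.55% of all genes) and 18.4% with gaps up to 1000 bp (28.5% of all genes). The median log2 signal of promoter peaks minus the others was -0.032, and 0.020 at 2000 bp, where the sign reversed.

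Gene lists at 2000 bp gave muscle 42.03%, ribosomal 20.99%, respiratory 14.1%, collagens 6.82% and chemoreceptors 0.153%. At 500 bp ribosomal genes gave 18.5% and collagens 5.11%. The peaks of higher signal gave ribosomal 11.1%, respiratory 6.25%, collagens 4.55% and chemoreceptors 0%. With the nearest start only, the same lists gave 12.3%, 7.81%, 4.55% and 0%. The share of all genes marked also changes with each setting and was not computed. These list values therefore have no matching background. Words within 100 bp gave GAGAGA 42.2%, ATGGCA 22.8%, GACGCA 19.9%, CACGTG 8.33% and AATCAC 9.56%.

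With as many regions of 1 replicate alone, values ranged over 43.2 to 44.6% at promoters, -231 to -216.5 bp, 74.4 to 75.6% single, 22.6 to 23.9% divergent and 7.91 to 8.89% downstream. The log2 signal difference was 0.017 to 0.034, so its sign reversed in both. Muscle ran from 24.6 to 31.9%, ribosomal 18.5 to 18.5%, respiratory 10.9 to 12.5%, collagens 5.11 to 5.68% and chemoreceptors 0.153 to 0.153%. GAGAGA ran from 19.95 to 29.5%, ATGGCA 11.3 to 16.03%, GACGCA 10.3 to 13.99%, CACGTG 2.71 to 5.09% and AATCAC 5.34 to 7.88%. The causes were not tested. No paired analysis was possible because the samples formed 1 group. Read depth was unknown, and no control sample shows the background.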
